A study of Mus musculus with 18 samples.

Results

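The striatum of adult mice lacking Pcm1 was compared with the striatum of wild-type (WT) littermates by RNA sequencing. The 6 striatal samples among the 18 of the study were taken by their tissue and genotype labels, 3 from knockout (KO) and 3 from WT animals, and every gene with enough reads was examined rather than a chosen list. The KO animals were homozygous for a gene-trap insertion in Pcm1 that came from embryonic stem cells of the parental line E14Tg2a.4, and the line was kept on a C57BL/6J background after at least a few generations of backcrossing, so the genome around the insertion can still be of stem-cell origin in the KO animals alone. Whether stem-cell segments also remained elsewhere in the genome was not tested. No treatment is given for either genotype, all tissue was frozen on the day of dissection, and both sexes were used. The other 12 samples were frontal cortex and hippocampus from the same 6 animals and were used here to see where the striatum differed. All 3 WT striatal libraries were sequenced in lane 5, whereas the KO striatal libraries were in lanes 3, 4 and 4, which leaves no lane shared by the genotypes in this tissue, and an effect of either cannot be told apart from one of the other.

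Pcm1 encodes the scaffold of centriolar satellites, small protein granules that move along microtubules and deliver cargo to the centrosome and to the base of the cilium. The striatum consists mostly of GABAergic spiny projection neurons, which divide into direct-pathway cells that carry the dopamine receptor Drd1 and indirect-pathway cells that carry Drd2, with smaller numbers of cholinergic and GABAergic interneurons, glia and vascular cells. It borders the lateral ventricle, whose wall is lined by ependymal cells with motile cilia and which holds the choroid plexus, the secretory epithelium that makes transthyretin (Ttr). A dissected striatum can therefore hold variable amounts of these neighbouring tissues.

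The libraries held between 27388776 and 30217605 reads counted on genes. Xist was high in 4 libraries and Y-linked genes in the other 2, WT 3 and KO 2, so each genotype had 1 library with Y-linked counts. The striatal identity of the samples was plain, with Ppp1r1b, the dopamine- and cAMP-regulated phosphoprotein of spiny projection neurons, between 2223 and 2605 CPM (read counts scaled to library size) in all 6 libraries. WT 3 stood apart from the other 5. It lay alone at one end of the first principal component, which held 52.7% of the variance, and its summed level of 29 choroid plexus genes was 17.2 times the median of the others. Results that depend on WT 3 are given with and without it.

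Pcm1 itself was the gene with the smallest p-value in the striatum. It received 4632, 4172 and 4919 reads in the WT libraries and 494, 520 and 443 in the KO libraries, so every KO library lay far below every WT library. Pcm1 fell by 3.29 on the log2 scale (SE 0.077; adjusted p = 1.46e-06, edgeR quasi-likelihood test with Benjamini-Hochberg adjustment), leaving 0.102 times the WT level. The gene lies at chr8:41239752-41332344 (GRCm38, plus strand); where along it the remaining reads lay was not analysed here. The same test called 4 other genes at an adjusted p under 0.05, all higher in KO, which is 0.0285% of the 17545 genes tested when Pcm1 is included. The number of calls and their split by direction varied between fits. DESeq2 called 270 higher and 218 lower, edgeR without a filter on low counts 41 and 24, and an edgeR fit over all 18 libraries of the study 40 and 14. Other fits called few genes, with 4 and 4 when lane was a term over the 18 libraries, 4 and 3 with DESeq2 size factors in edgeR, 3 and 1 with limma voom and 1 and 2 with the replicate number as a block. Pcm1 and Gm6969 passed in every fit tried.

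Maco1, which encodes macoilin, a membrane protein of the endoplasmic reticulum that is abundant in neurons, rose in the KO striatum. Its levels were 80.2, 76.9 and 82.1 CPM in WT and 123, 119 and 120.0 CPM in KO, a difference of 0.60 on the log2 scale (SE 0.052, adjusted p = 0.0169, edgeR). The groups were tight and far apart. Cers6, a ceramide synthase, rose from 44.5, 48.9 and 44.7 CPM to 85.3, 75.9 and 75.6 CPM (log2 0.78, adjusted p = 0.0178, edgeR), again with no overlap. Cldn23, which encodes a claudin, a tight-junction membrane protein, was near its detection limit in WT with 17, 10 and 29 reads and reached 160, 161 and 122 reads in KO. That rise was 2.92 on the log2 scale (SE 0.31, adjusted p = 0.0466, edgeR). Cldn23 lies at chr8:35824712-35826559, 5.41 Mb from Pcm1 on the same chromosome.

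The calls of these 3 genes were less secure than those of Pcm1 and Gm6969, with the direction unchanged in every fit. Maco1 missed the threshold without WT 1, WT 2, KO 1, KO 2 or KO 3 in turn (adjusted p from 0.0515 to 0.154, edgeR). Cers6 missed it without any 1 of the 6 libraries (0.0515 to 0.117), and Cldn23 missed it without each library but WT 3 (0.0725 to 0.341). With lane as a term over all 18 libraries, Cldn23 had an adjusted p of 0.0631 and the other 2 passed.

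The largest rise among called genes was of Gm6969, annotated as a processed pseudogene at chr12:24638669-24639010 (minus strand). It had 7, 3 and 7 reads in WT and 112, 187 and 121 reads in KO, and rose by 4.53 on the log2 scale (SE 0.31, adjusted p = 0.00415, edgeR). A processed pseudogene is an intronless copy of another gene's mRNA, and the parent here is Cox7a2l (chr17:83501918-83517330, minus strand), which encodes an assembly factor for respiratory supercomplexes. Aligned to the 336 coding bases of Cox7a2l, the 342-base Gm6969 transcript was identical at 334 bases, with 2 substitutions and 1 stretch of 6 inserted bases, an identity of 99.4% of the aligned bases. The stretch around the insertion is shown because it is the main place where reads of the copies can be told apart. Sequences are from the GENCODE vM21 transcripts of GRCm38, written 5′ to 3′ in transcript direction, and capitals mark the inserted bases and a base that differs beside them. Printed are bases 187 to 246 of Gm6969 and coding bases 187 to 240 of Cox7a2l.
Gm6969: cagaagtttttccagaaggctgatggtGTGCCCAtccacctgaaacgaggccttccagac
Cox7a2l: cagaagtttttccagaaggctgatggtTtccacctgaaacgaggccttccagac
The 2 sequences run together on both sides of the insertion. Cox7a2l was at 43.9, 47.5 and 49.5 CPM in WT and 42.3, 42.8 and 42.7 CPM in KO, a difference of −0.14 on the log2 scale that missed the threshold (adjusted p = 0.38, edgeR). Whether reads of Cox7a2l were counted on Gm6969 was not tested, so the level of Gm6969 and its difference between the genotypes are uncertain.

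**Figure D1:**
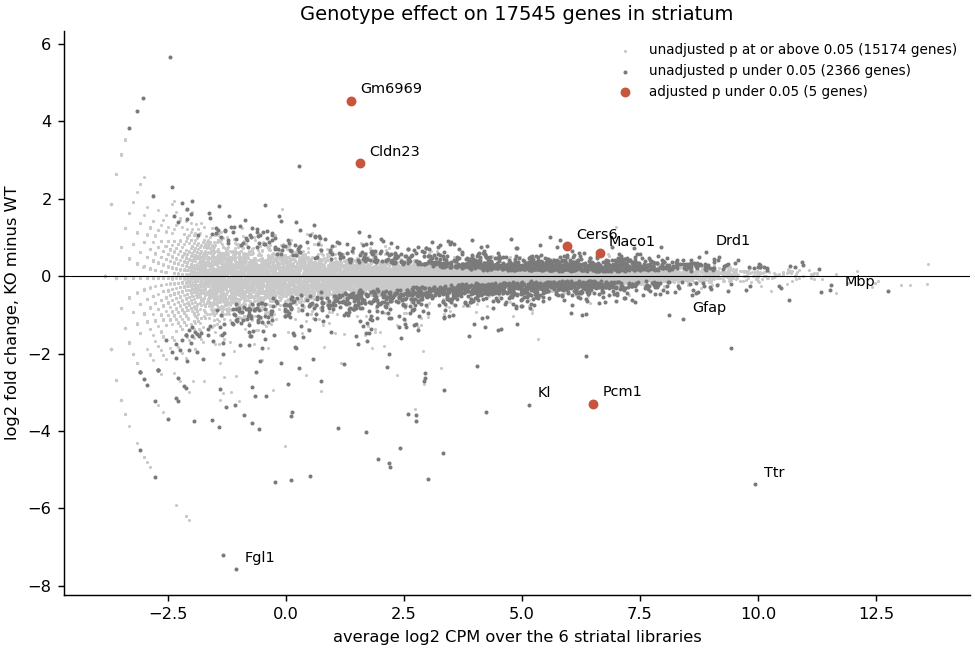
The difference between KO and WT striatum (vertical axis, log2 KO/WT) is drawn against the average level (horizontal axis, log2 CPM), with 1 point for each of the 17545 genes tested. Pcm1 lies at −3.29 and the 4 genes that rose lie above 0, all in red; other labelled points far below 0 such as Ttr and Kl are choroid plexus genes that were high in WT 3 and did not pass the adjusted threshold.

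Below those 5 genes lay a much larger set of small differences. In all, 1147 genes were higher and 1224 lower in KO at an unadjusted p under 0.05, together 13.5% of the genes tested, and the 3 KO values lay wholly outside the 3 WT values for 3323 genes (18.9%). These shares are the background for the counts below: 6.54% of all genes were higher and 6.98% lower at the unadjusted threshold, and 9.92% lay wholly above and 9.02% wholly below the WT values. With n = 3 libraries per genotype, the p-values set the difference between the groups against the spread between animals of a genotype. That difference also carries lane. The direction of the difference went with the level of the gene. Among the 1683 genes above 7 log2 CPM, 229 were higher and 90 lower, whereas among the 2751 genes between 1 and 3 log2 CPM, 102 were higher and 246 lower. The background shares above are over genes of all levels. No share matched to the level of a list was computed, so lists of highly expressed genes can exceed 6.54% through their level.

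At an adjusted p under 0.1 the set grew to 23 genes (0.131%), 17 of them higher and 6 lower. Among the 18 genes between the thresholds, Chrm1, the M1 muscarinic acetylcholine receptor, was at 210.2, 184 and 161 CPM in WT and 328, 291 and 312 CPM in KO (log2 0.74, adjusted p = 0.0921, edgeR). Kcna5, a voltage-gated potassium channel, was at 33.6, 28.4 and 28.6 CPM in WT and 61.3, 49.2 and 48.1 CPM in KO (log2 0.81). Both lay wholly above the WT range in the 3 KO libraries. The metabotropic glutamate receptor Grm7 differed by 0.42, the synaptic vesicle calcium sensor Syt5 by 0.47 and Grina by 0.44, all higher in KO and all without overlap. Plppr3 (log2 0.49), Tmem63c (0.52), the orphan receptor Gpr173 (0.59), the small GTPase Rnd3 (0.58), the scavenging chemokine receptor Ackr2 (0.81), Dcbld1 (0.56) and AI429214 (1.14) were also higher.

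On the lower side of the same set, Grik1, a kainate receptor subunit, had 179, 237 and 270 reads in WT and 82, 95 and 108 reads in KO (log2 −1.31, adjusted p = 0.0921, edgeR). Dctd, which deaminates deoxycytidylate in nucleotide synthesis, had 196, 228 and 216 reads in WT and 98, 117 and 95 reads in KO (log2 −1.10, adjusted p = 0.0551, edgeR). Mast4, a microtubule-associated kinase, was at 62.2, 65.8 and 62.0 CPM in WT and 44.1, 46.4 and 43.8 CPM in KO (log2 −0.50, adjusted p = 0.0551, edgeR). All 3 genes were lower in each KO library than in any WT library. Slc7a2, a cationic amino acid transporter, differed by −0.55, and ENSMUSG00000078821, an identifier with no name in the annotation used, by −1.12.

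Choroid plexus genes differed between the genotypes through 1 WT library. Ttr was at 25.5, 25.6 and 5661 CPM in WT and 7.92, 127 and 2.96 CPM in KO. Folr1, the folate receptor of the choroid epithelium, had 13, 14 and 1002 reads in WT and 21, 56 and 20 in KO. Kl, which encodes klotho, had 123, 160 and 5170 reads in WT and 152, 290 and 119 in KO. WT 3 was the highest library for all 29 of 29 genes of the list, and among the KO libraries KO 2 exceeded both others for 25 of 29. The summed level of the list was 559.8, 549 and 9453 CPM in WT and 463, 738 and 488 CPM in KO.

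Of the 29 choroid plexus genes, 14 were lower in KO at the unadjusted threshold and none higher, with a median of −2.79 on the log2 scale against −0.00 over all genes, yet the groups failed to overlap for 1 of them, Col8a1. Without WT 3 the list turned over, with 7 genes higher, 1 lower and a median of 0.35 (6.67% of all genes were higher and 6.97% lower in that fit). The same shares are the background for the other counts without WT 3 below. Ttr, Kl, the bicarbonate transporter Slc4a5 and the water channel Aqp1 changed sign.

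WT 3 was also the highest library for genes of other neighbouring tissues. Shox2, a transcription factor of the thalamus and brainstem, had 36, 42 and 430 reads in WT and 4, 26 and 2 in KO. Slc17a6, the vesicular glutamate transporter of thalamic and other subcortical neurons, had 138, 160 and 808 reads in WT and 36, 121 and 30 in KO. Both were highest in WT 3, and both stayed lower in every KO library than in WT 1 and WT 2. The thalamic list summed to 200.4, 195 and 335 CPM in WT and 183, 181 and 174 CPM in KO; 5 of its 8 genes were lower in KO, and 2 without WT 3. Leptomeningeal and fibroblast genes summed to 259, 276 and 670.5 CPM in WT and 152, 222 and 194 CPM in KO, with 8 of 14 lower and a median of −0.66. Without WT 3, 5 were lower and the median was −0.36.

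Several meningeal genes were lower in KO whichever WT library is considered. Ptgds, the prostaglandin D synthase of the meninges and oligodendrocytes, was at 189, 198 and 233 CPM in WT and 97.1, 156 and 136 CPM in KO. The small proteoglycan Dcn was at 6.90, 7.12 and 11 CPM in WT and 4.10, 4.84 and 4.67 CPM in KO. Neither passed the adjusted threshold. Igf2, by contrast, was at 35.2, 41.5 and 320.1 CPM in WT and 29.0, 35.8 and 30 CPM in KO, so WT 3 alone was high. Slc17a7, the cortical vesicular glutamate transporter, was instead highest in WT 1. It was at 64.1, 10.6 and 26.6 CPM in WT and 9.58, 13.3 and 16.4 CPM in KO. Of 14 cortical genes 1 was higher and 2 were lower, and their median was −0.75 with WT 1 and 0.01 without it, where 1 was lower (8.53% of all genes were).

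**Figure D2:**
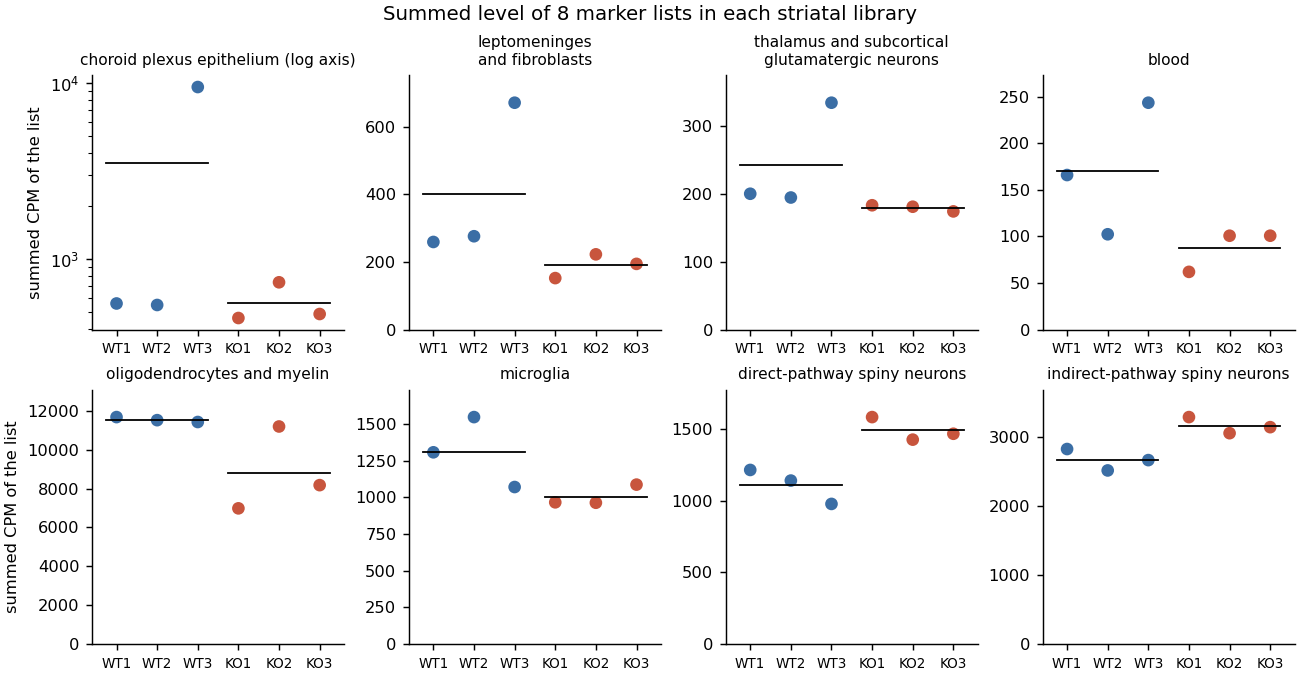
Summed levels of gene lists are drawn for each of the 6 striatal libraries (points) with the genotype means as lines, in CPM; axes start at 0 except the log axis for choroid plexus. WT 3 stands alone for choroid plexus genes at 9453 CPM, oligodendrocyte genes are lowest in KO 1 and KO 3, microglial genes are highest in WT 2, and the direct- and indirect-pathway lists do not overlap between the genotypes.

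Several markers of the spiny projection neurons had higher levels in KO. Drd1 was at 434, 381 and 325 CPM in WT and 612, 554 and 573 CPM in KO (log2 0.61, adjusted p = 0.123, edgeR). Drd2 was at 253, 243 and 250.1 CPM in WT and 305, 303 and 307 CPM in KO (log2 0.29, adjusted p = 0.128, edgeR). Neither passed the adjusted threshold, although the groups did not overlap. In bulk tissue, more cells of a type and more RNA per cell cannot be told apart, and nor can fewer cells and less RNA, here or for the lists below.

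Of 10 direct-pathway genes, 5 were higher and 1 lower at the unadjusted threshold, with a median of 0.11. The list was mixed: 7 differences were positive and 3 negative, and 5 genes lay wholly above and 2 wholly below the WT range. The opioid peptide precursor Pdyn was at 156, 157 and 120.2 CPM in WT and 255, 191 and 201 CPM in KO, and Tac1, the substance P precursor, at 239, 232 and 176 against 302, 267 and 288 CPM. Both lay wholly above the WT range. Of 8 indirect-pathway genes, 6 were higher and none lower, with a median of 0.26; Adora2a, the adenosine A2a receptor, was at 436, 378 and 355 CPM in WT and 492, 463 and 483 CPM in KO. Without WT 3 the direct-pathway list counted 4 higher and 2 lower (median 0.12) and the indirect-pathway list 5 higher and none lower (0.25). Penk, also of the indirect-pathway list, differed by 0.24 on the log2 scale. In the fit over all 18 libraries with lane as a term it differed by −0.17. Of the 30 genes common to both cell types 4 were higher, with a median of 0.09, and their summed level overlapped between the genotypes. Ppp1r1b was at 2605, 2223 and 2229 CPM in WT and 2543, 2392 and 2573 CPM in KO (log2 0.09).

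Among the common genes, Slc32a1, the vesicular GABA transporter, was at 284, 279.8 and 248 CPM in WT and 353, 342 and 349 CPM in KO. Its groups did not overlap, and WT 3 held the lowest value. Striosome genes (3 of 7 higher, median 0.22) and matrix genes (3 of 7 higher, median 0.22) had like counts and medians, and the difference between the lists was not tested. Oprm1, the mu opioid receptor that marks striosomes, was at 4.19, 3.20 and 3.94 CPM in WT and 7.85, 4.26 and 6.86 CPM in KO, and Calb1, which marks the matrix, at 333, 351 and 299 against 439, 373 and 410.2 CPM. Of 9 genes of the ventral striatum 2 were higher, among them Wfs1 (186, 219.7 and 180.0 against 334, 249.6 and 255 CPM). In that list 7 of 9 differences were positive, with a median of 0.42, and its summed level overlapped between the genotypes. The dorsoventral position of each dissection is not given, and its part in these values was not tested.

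Interneuron markers were examined in the same way. None of 6 cholinergic genes passed the unadjusted threshold by edgeR, DESeq2 or limma voom, and the choline transporter Slc5a7 was at 75.6, 73.2 and 64.5 CPM in WT and 66.8, 60.9 and 77.6 CPM in KO. Of 14 genes of GABAergic interneurons, 3 were higher and 1 lower, each without overlap, and the median was 0.07. Somatostatin (Sst) was at 125, 132 and 137 against 117, 132 and 142 CPM, with full overlap. Calb2, which the thalamic list also holds, was at 5.08, 4.94 and 8.37 CPM in WT and 2.88, 2.71 and 3.07 CPM in KO (log2 −1.09).

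Part of the activity-regulated genes had higher levels in KO. Of 29 immediate early genes, 11 were higher and none lower at the unadjusted threshold, 8 of the 11 without overlap, and the median was 0.30. Nr4a1, an orphan nuclear receptor induced by neuronal activity, was at 119, 140.4 and 117 CPM in WT and 197, 244 and 179 CPM in KO (log2 0.72, adjusted p = 0.111, edgeR). Fosl2, a partner of Jun proteins, was at 45.9, 43.4 and 25.9 CPM in WT and 90.9, 66.6 and 62.3 CPM in KO (log2 0.93, adjusted p = 0.177, edgeR). Each KO library exceeded each WT library for both. Egr1 (388, 392 and 327 against 441, 461 and 497 CPM) and Fosb (28.9, 35.1 and 26.2 against 43.6, 44.1 and 38.9 CPM) behaved alike. The time of day of dissection and the handling of each animal are not given, and their part was not tested; the clock gene Per1, which activity also induces, was at 182, 146 and 143 CPM in WT and 231, 184 and 237 CPM in KO, while 3 of 18 circadian genes were higher overall. No member of the list passed the adjusted threshold, and without WT 3 the list counted 10 higher and 1 lower with a median of 0.23. In that fit 6.67% of all genes were higher and 6.97% lower.

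Ion channel genes leaned the same way. Of 44 voltage-gated potassium channel genes, 13 were higher and 2 lower, with a median of 0.11. Beside Kcna5 these included Kcna4 (122, 118 and 108 against 176, 146 and 150.3 CPM), Kcnf1 (67.2, 64.3 and 54.7 against 96.3, 79.5 and 91.1 CPM) and Kcns2 (53.3, 49.4 and 44.5 against 71.0, 66.3 and 59.6 CPM). Leaving out KO 1 reduced the count to 7 higher and 1 lower, with 3.9% of all genes higher in that fit, and leaving out WT 3 gave 11 higher and 1 lower. Of 39 sodium and calcium channel genes 5 were higher and none lower; Cacng8, an auxiliary subunit of AMPA receptors grouped there by its name, was at 61.1, 57.5 and 48.8 CPM in WT and 88.0, 74.0 and 80.5 CPM in KO. Clustered protocadherins, cell-surface molecules that give neurons individual identities, had a positive difference for 23 of 24 genes, with 7 higher at the unadjusted threshold and a median of 0.33. Their summed level was 1389, 1270.2 and 1195 CPM in WT and 1688, 1406 and 1639 CPM in KO. KO 2 was the lowest KO library, and 19 genes were higher without it (6.79% of all genes).

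No synaptic gene passed the adjusted threshold. Of 40 genes of synaptic vesicles and release, 8 were higher and 4 lower, with a median of 0.02. Syt4 was at 312, 304 and 257 CPM in WT and 414, 359 and 388 CPM in KO, and Sv2c, a vesicle protein enriched in the basal ganglia, at 151, 135 and 135 against 265, 177 and 181 CPM, whereas Snap25 overlapped at 1823, 1751 and 1938 against 1762, 1731 and 1759 CPM. Postsynaptic genes counted 6 higher and 1 lower of 38, including the glutamate receptor genes Grin1 (397, 342 and 330.5 against 450.4, 419 and 473 CPM), Gria1 (606, 585 and 553 against 758, 666 and 692 CPM) and Grm5 (519, 434 and 448 against 689, 543 and 585 CPM). Camk2a overlapped. Dopamine and cAMP effectors counted 6 higher and 1 lower of 29, led by the inward rectifier Kcnj4 (257, 228 and 192 against 324, 286 and 328 CPM).

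**Figure D3:**
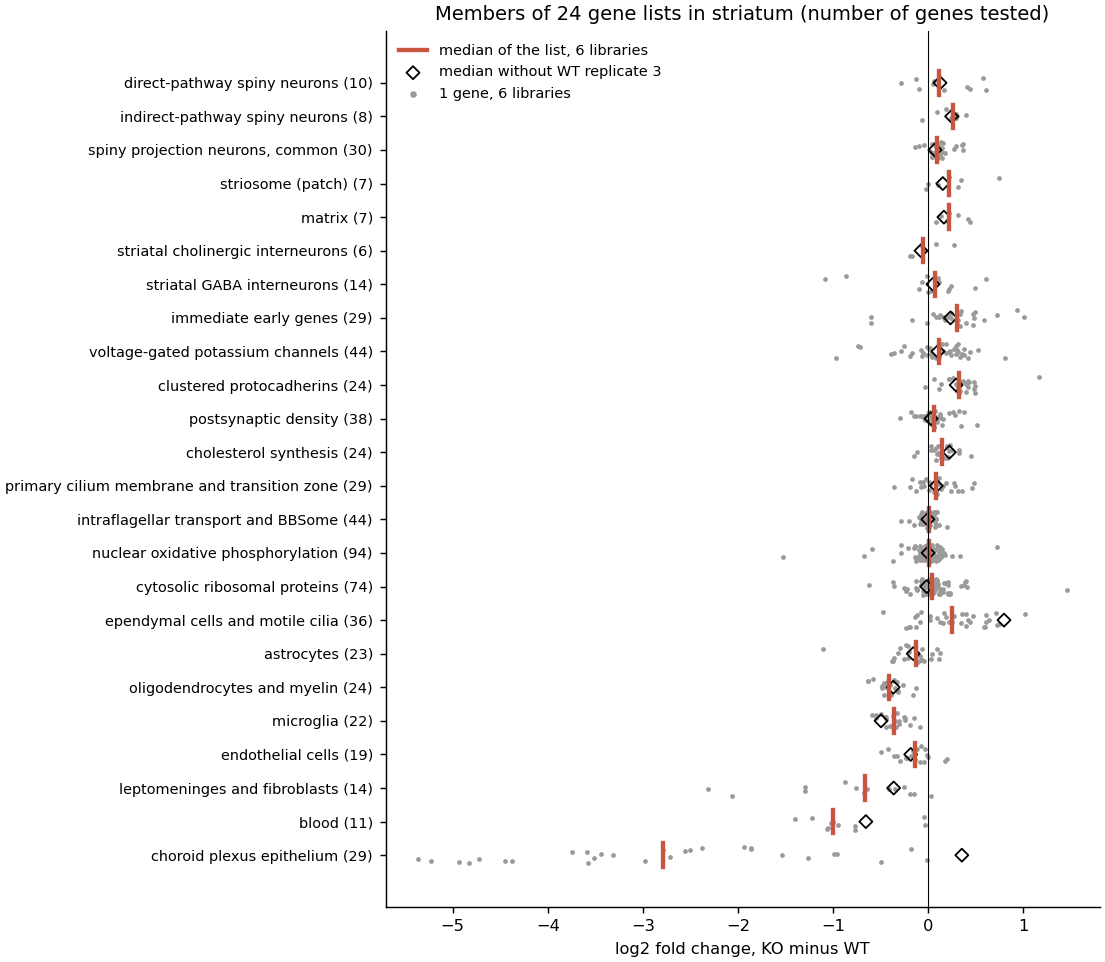
The difference between KO and WT striatum (log2 KO/WT, horizontal axis) is drawn for each gene of the lists (points) with the list median (bar) and the median without WT 3 (diamond), 1 list a row. Oligodendrocyte and microglial genes lie left of 0 with medians of −0.41 and −0.36, immediate early genes and clustered protocadherins lie right of it at 0.30 and 0.33, and intraflagellar transport genes centre on 0.00.

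Oligodendrocyte genes had lower levels in KO. All 24 of 24 had a negative difference, 18 were lower at the unadjusted threshold, 12 without overlap, and the median was −0.41. Myrf, the transcription factor that drives myelination, was at 126, 134 and 142 CPM in WT and 89.9, 111 and 87.4 CPM in KO (log2 −0.48, adjusted p = 0.134, edgeR). Trf, the iron carrier transferrin made by oligodendrocytes, was at 105, 103 and 94.1 CPM in WT and 51.7, 76.6 and 67.0 CPM in KO. Both were lower in all 3 KO libraries. The myelin basic protein gene Mbp split the KO group, at 3722, 3616 and 3731 CPM in WT and 2079.9, 3769 and 2365 CPM in KO, so that KO 2 lay above the WT libraries.

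The summed oligodendrocyte level showed the same split, at 11680.0, 11522 and 11427 CPM in WT and 6982, 11196 and 8177 CPM in KO. The WT libraries were within a narrow range and KO 1 and KO 3 far below it. In the libraries with Xist the comparison was 11680.0 and 11522 against 6982 and 8177 CPM, and in those with Y-linked genes 11427 against 11196 CPM. Without KO 1, 11 genes were lower with a median of −0.28 (3.76% of all genes were lower), and without KO 2, 23 were lower with −0.58 (7.15% of all genes). Without WT 3, 12 were lower with −0.37. In the fit over all 18 libraries with lane as a term, 1 gene of the 24 was lower, against 6.93% of all genes. Of the precursor cell genes 2 of 11 were lower, Olig2 (35.3, 44.1 and 41.6 against 24.2, 32.0 and 28.1 CPM) and Olig1 (148, 136 and 129 against 90.9, 124 and 102 CPM), both of which mature oligodendrocytes also express. How much white matter each dissection held was not measured.

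Microglial genes were lower as well. Of 22, 17 were lower and none higher at the unadjusted threshold, 10 without overlap, with a median of −0.36. Selplg, a selectin ligand, was at 42.4, 51.0 and 46.0 CPM in WT and 29.6, 33.9 and 31.8 CPM in KO (log2 −0.55, adjusted p = 0.104, edgeR). The purinergic receptor P2ry12, a marker of resting microglia, was at 77.4, 72.6 and 69.3 CPM in WT and 58.4, 58.2 and 61.0 CPM in KO. Tmem119 was at 31.4, 36.4 and 27.4 against 23.2, 23.3 and 25.4 CPM. The KO values of all 3 genes were close together and under the WT range. Other members overlapped, such as Cx3cr1 at 109, 117 and 84.8 against 86.4, 79.7 and 96.3 CPM, and the summed level, at 1308, 1548 and 1071 CPM in WT and 966, 964 and 1087 CPM in KO, overlapped through WT 3 and KO 3. Without WT 2, its highest library, 10 genes were lower and the median was −0.24 (5.73% of all genes were lower), and without WT 3, its lowest WT library, 19 were lower with −0.50.

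Gfap, Serpina3n and Cybb were highest in WT 2. Gfap, the intermediate filament of astrocytes, was at 355, 743 and 302 CPM in WT and 175, 225 and 249 CPM in KO (log2 −1.11, adjusted p = 0.218, edgeR), and without WT 2 its difference was −0.60. Serpina3n, an acute-phase protease inhibitor, had 584, 1674 and 428 reads in WT and 276, 391 and 396 in KO, and Cybb, a subunit of the phagocyte oxidase, had 88, 251 and 65 against 58, 34 and 57. All 3 were lower in every KO library, with the WT 2 value well above the other WT values. Astrocyte genes as a list counted 9 of 23 lower and none higher, with a median of −0.13. The secreted chaperone Clu was at 893, 989 and 1010.0 CPM in WT and 699, 769 and 783 CPM in KO, whereas the glutamate transporter Slc1a2 overlapped at 4843, 4128 and 3579 against 5506, 3452 and 4671 CPM.

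Vascular and blood genes were also on the low side. Pericyte and smooth muscle genes were lower for 4 of 13, with summed levels of 256, 258 and 259.6 CPM in WT and 229.7, 229 and 214 CPM in KO. Rgs5, a pericyte marker, was at 93.2, 93.9 and 103 CPM in WT and 78.9, 86.6 and 76.4 CPM in KO. Endothelial genes counted 1 higher and 4 lower of 19. Blood genes, which measure blood left in the tissue, were lower for 6 of 11; the globin Hba-a1 was at 24.6, 12.5 and 40.3 CPM in WT and 7.02, 15.7 and 14.6 CPM in KO, and without WT 3 only 1 of the 11 was lower. Interferon and MHC class I genes counted 5 of 29 lower with a median of −0.29, which became 0.05 without WT 2.

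Genes of the centriolar satellites, which Pcm1 scaffolds, and of the centrosome passed the unadjusted threshold at a share near that of all genes, 12.5% against 13.5%. Of 48 genes tested, 4 were lower, Pcm1 among them, and 2 higher, with a median of 0.04. Nde1, a dynein regulator at the centrosome, was at 30.2, 33.9 and 31.1 CPM in WT and 19.6, 23.8 and 21.0 CPM in KO (log2 −0.56, adjusted p = 0.104, edgeR). Cdk5rap2, a pericentriolar scaffold, was at 28.4, 28.3 and 33.9 against 23.8, 25.1 and 23.4 CPM. Hap1, which encodes the huntingtin-associated protein that binds the PCM1 protein, was at 108, 138 and 114 CPM in WT and 172, 145 and 157 CPM in KO. The groups did not overlap for any of these 3 genes, and none passed the adjusted threshold.

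None of 44 intraflagellar transport and BBSome genes passed even the unadjusted threshold, with a median of 0.00, by edgeR and also by DESeq2 and limma voom. Genes of the ciliary membrane and transition zone counted 8 higher and 1 lower of 29. Ahi1, the transition zone gene mutated in Joubert syndrome, was at 183, 212 and 182 CPM in WT and 256, 243 and 239 CPM in KO (log2 0.35, adjusted p = 0.147, edgeR). Adcy3, the adenylyl cyclase of neuronal cilia, was at 78.1, 73.8 and 60.5 against 90.2, 81.5 and 92.8 CPM. Both lay above the WT range in all 3 KO libraries. Gpr161, a ciliary receptor that restrains hedgehog signalling, was at 3.71, 4.4 and 4.47 against 6.34, 5.67 and 5.29 CPM. The hedgehog list counted 1 higher, the same Gpr161, and 1 lower of 14, and Ptch1, a readout of the pathway, was at 63.1, 69.7 and 75.9 against 76.4, 73 and 74.9 CPM.

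Ependymal and motile cilium genes depended on WT 3. Of 36, 4 were higher and 1 lower, with a median of 0.25. Foxj1, the master regulator of motile ciliogenesis, was at 14.2, 24.5 and 33.2 CPM in WT and 21.7, 30.8 and 20.3 CPM in KO. Tmem212 was at 1.30, 2.25 and 3.02 CPM in WT and 4.54, 5.22 and 3.61 CPM in KO, above the WT range in each KO library. WT 3 held the highest WT level of both genes, and without it 22 of 36 were higher and 1 lower, with a median of 0.80. In that fit 6.67% of all genes were higher and 6.97% lower. How much ventricular wall each dissection held is not given, and its part in these values was not tested.

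Housekeeping lists held few genes past the unadjusted threshold. Of 94 nuclear genes of oxidative phosphorylation 1 was higher and none lower, and none of 38 proteasome genes and none of 30 chaperone genes passed the unadjusted threshold by edgeR or DESeq2. Cytosolic ribosomal protein genes counted 3 higher and 1 lower of 74. Cholesterol synthesis genes, by contrast, had a positive difference in 22 of 24 cases, 5 higher at the unadjusted threshold, with a median of 0.14. Srebf2, the pathway's transcription factor, was at 244, 231 and 239 CPM in WT and 278, 259 and 282 CPM in KO. Its groups did not overlap, and 13 genes of the list were higher without WT 3 (6.67% of all genes were higher in that fit).

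A larger share of the genes near Pcm1 passed the unadjusted threshold. Within 10 Mb of it, 80 genes were tested, of which 14 were higher and 10 lower, a share of 30% against the 13.5% over all genes. The share was 40.0% of the 15 genes within 2 Mb, 26.1% of 23 genes between 2 and 5 Mb and 28.6% of 42 genes between 5 and 10 Mb. Beyond that it was 11.8% of 102 genes between 10 and 20 Mb, and over the whole of chromosome 8 it was 12.9%. Both directions were present, and the median over the 80 genes was 0.01.

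Single neighbours of Pcm1, chosen after their values were seen, had large differences. Fgl1, a secreted liver protein whose gene is 0.025 Mb away, had 34, 19 and 16 reads in WT and 0, 0 and 0 in KO; against a floor of 3 reads per library it was at least 8-fold lower. Gm5345, 0.385 Mb away, had 16, 16 and 10 reads in WT and 1, 2 and 0 in KO. Neither gene had a KO read count near its WT counts. AI429214, 4.244 Mb away, had 45, 48 and 54 reads in WT and 120, 105 and 111 in KO, and Sgcz, a sarcoglycan gene 2.578 Mb away, had 176, 125 and 195 against 322, 345 and 286. Slc7a2 (0.317 Mb) and Dctd (6.767 Mb), described above, are also in this interval, as is Cldn23. Whether these differences followed the loss of Pcm1 or stem-cell alleles linked to the insertion cannot be told apart, because both were carried by the same animals.

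**Figure D4:**
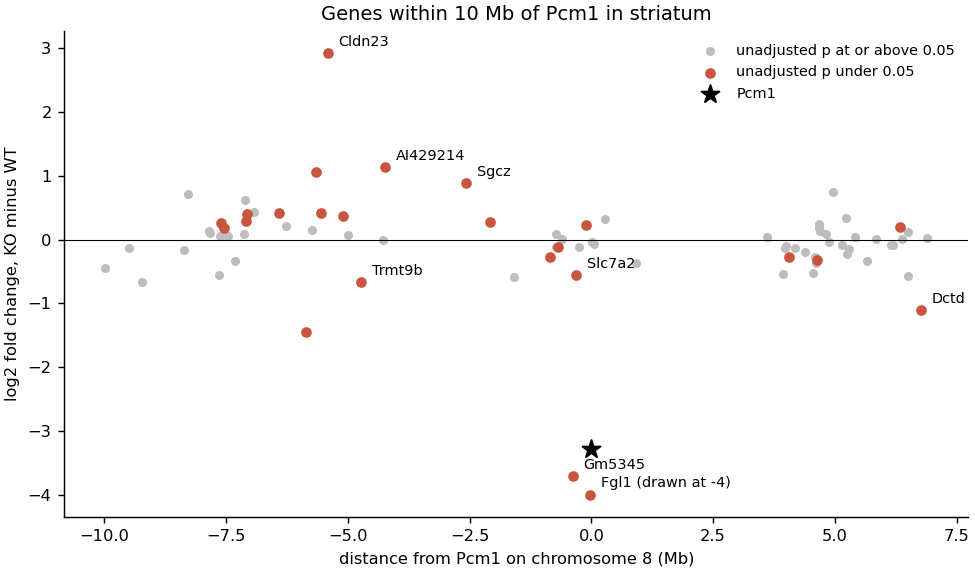
The difference between KO and WT striatum (log2 KO/WT, vertical axis) is drawn for the tested genes within 10 Mb of Pcm1 against their signed distance from Pcm1 (Mb, horizontal axis). Genes that differ lie on both sides of Pcm1 and in both directions within 10 Mb, and Fgl1, which had no KO reads, is drawn at the lower edge of the plot.

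A few genes on other chromosomes, chosen after their values were seen, also separated the genotypes cleanly. Ide, which encodes the insulin-degrading enzyme on chromosome 19, was at 108, 110.2 and 109.8 CPM in WT and 48.7, 45.7 and 71.6 CPM in KO (log2 −0.98, adjusted p = 0.104, edgeR). Its neighbour Btaf1 was at 55.0, 56.7 and 48.2 against 32.8, 29.8 and 39.9 CPM. In both, KO 3 lay between the other KO libraries and WT. Within 1 Mb of Ide 2 of 18 tested genes were higher and 3 lower. Fth1, the ferritin heavy chain, was at 1915, 2004 and 1916 CPM in WT and 1106, 1441 and 1250.4 CPM in KO. H2-Bl, an MHC class I gene with close relatives whose reads it may share, had 4, 4 and 15 reads in WT and 49, 76 and 49 in KO. Whether stem-cell alleles on these chromosomes had a part in the values was not tested.

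The called genes had like differences in the other regions of the same animals. Pcm1 differed by −3.29 in striatum, −3.46 in frontal cortex and −3.49 in hippocampus on the log2 scale, Maco1 by 0.60, 0.75 and 0.52, Cers6 by 0.78, 0.91 and 0.96 and Gm6969 by 4.53, 4.44 and 5.99. The groups did not overlap in any region for these 4. Cldn23 was another matter, with 2.92 in striatum, 0.88 in frontal cortex and 0.49 in hippocampus; its KO counts were 160, 161 and 122 in striatum but 28, 35 and 27 in frontal cortex and 12, 17 and 17 in hippocampus. The difference between the striatal effect and the mean of the other effects was 2.24 and missed the threshold after adjustment (adjusted p = 0.355, edgeR interaction test). Most genes between the thresholds also kept their direction, among them Chrm1 (0.74, 0.55 and 0.72) and Dctd (−1.11, −1.36 and −1.14). Outside that set, Ide differed by −0.99, −0.90 and −0.88. Drd1 differed by 0.61, 0.68 and 0.68, whereas Drd2 differed by 0.29, 0.39 and −0.60.

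The kainate receptor gene Grik1 was the 1 gene whose genotype effect in the striatum differed from the mean of the other regions at an adjusted p under 0.05 (0.0057% of the genes tested), against 808 genes (4.61%) at the unadjusted threshold. In striatum it was lower in each KO library, as given above. In frontal cortex it had 209, 213 and 249 reads in WT and 279, 320 and 277 in KO, and in hippocampus 289, 252 and 323 in WT and 255, 250 and 333 in KO. Scaled to library size, the groups overlapped in both. The log2 effects were −1.32, 0.21 and −0.12, and the striatal effect was lower than the mean of the others by 1.36 (adjusted p = 0.0247, edgeR interaction test). That test takes the 18 libraries as independent, although each animal gave all 3 regions. With animal as a block the difference of −1.36 missed the threshold (adjusted p = 0.0669), as it did with lane as a term (−1.20, adjusted p = 0.208) and without WT 3 (adjusted p = 0.118), KO 1 (0.211) or KO 2 (0.108), all by edgeR. Against frontal cortex alone the difference was −1.52 (adjusted p = 0.0327), and against hippocampus alone −1.19, which missed the threshold (adjusted p = 0.259, edgeR), as did all genes there (0.0% called). Rnd3 (0.58, 0.01 and −0.19), Plppr3 (0.49, 0.14 and 0.06) and Mast4 (−0.50, −0.10 and −0.16) had larger values in striatum, but their interaction tests did not pass after adjustment.

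**Figure D5:**
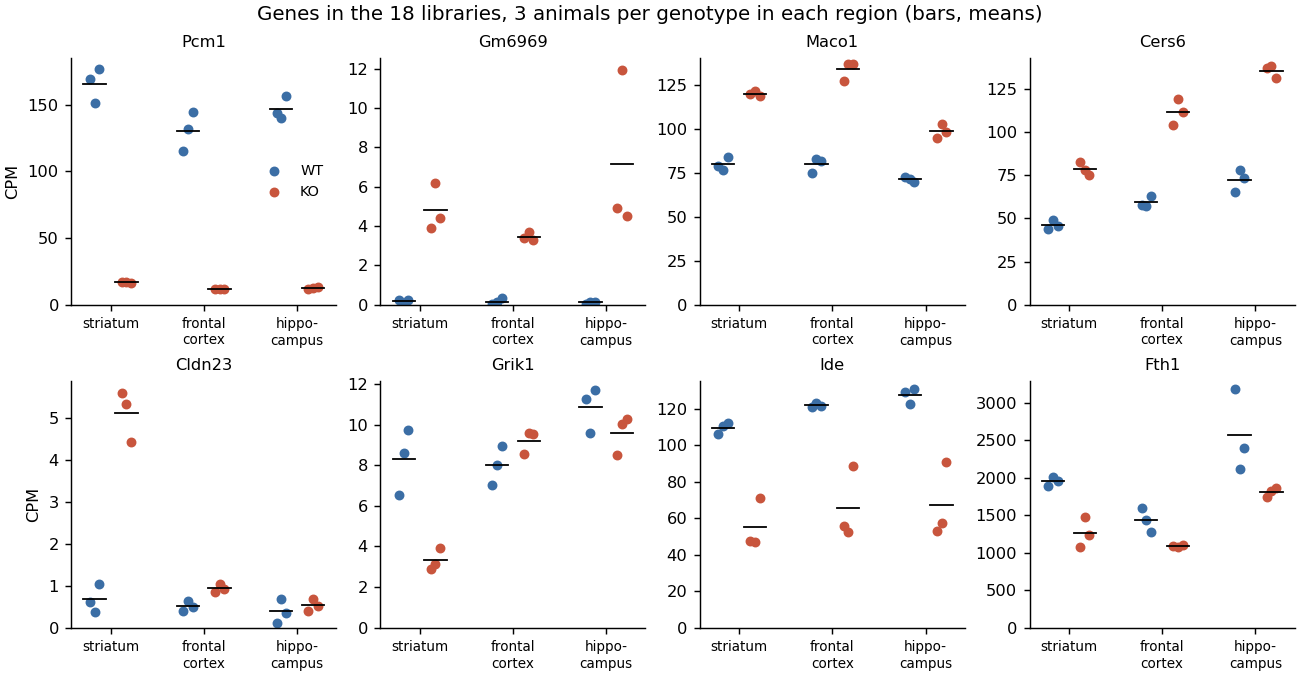
Levels of selected genes are drawn for each WT and KO library in striatum, frontal cortex and hippocampus, in CPM scaled to total reads on axes that start at 0, with bars for the means. Maco1 and Cers6 are higher in KO in all 3 regions, while Grik1 lies below WT in the striatum and overlaps with it elsewhere.

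Among genes above 1 log2 CPM that passed the unadjusted threshold without overlap, the 12 largest higher values were those of Gm6969, Cldn23, AI429214, Tmem212, Shisa8, Fosl2, Sstr5, Irak3, Sgcz, Adgb, Trhr2 and Car9. Sstr5, a somatostatin receptor, was at 14.3, 9.45 and 7.88 CPM in WT and 21.7, 19.2 and 19.2 CPM in KO (log2 0.92). Trhr2, a receptor for thyrotropin-releasing hormone, was at 9.16, 7.96 and 6.65 against 15.5, 12.5 and 15.5 CPM (log2 0.87). Shisa8, an AMPA receptor accessory protein, was at 2.30, 3.05 and 2.67 against 7.92, 3.58 and 4.20 CPM, and without KO 1 its difference of 0.96 on the log2 scale became 0.54. Irak3, an inhibitor of Toll-like receptor signalling, was at 7.82, 6.43 and 8.33 against 17.1, 10.6 and 14.3 CPM. Car9, a carbonic anhydrase, and Adgb, an androglobin, were under 5 CPM in every library.

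The 12 largest lower values were those of Shox2, Col8a1, Pcm1, Slc17a6, Rbm47, A2m, Cbln1, Lepr, Cybb, Gm7887, Slc6a20a and Serpina3n. WT 3 held the highest level for 10 of them, all but Cybb and Serpina3n, although its Pcm1 level was close to that of WT 1. A2m, a protease inhibitor, had 90, 191 and 318 reads in WT and 28, 71 and 55 in KO, and Cbln1, a synaptic organizer made by thalamic and cerebellar neurons, had 77, 91 and 198 against 25, 47 and 41. Lepr, the leptin receptor, had 68, 55 and 220 against 40, 39 and 41, and the transporter gene Slc6a20a 178, 166 and 491 against 92, 130 and 104. In each, the KO libraries lay under WT 1 and WT 2 as well.

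The size of most of these values rested on 1 library. Without WT 3, Shox2 moved from −4.03 to −1.96 on the log2 scale, Col8a1 from −3.57 to −0.65, Slc17a6 from −2.63 to −1.36, Rbm47 from −2.27 to −0.63, Lepr from −1.55 to −0.69, Gm7887 from −1.47 to −0.91 and Slc6a20a from −1.40 to −0.75. Rbm47 and Gm7887 then missed the unadjusted threshold. Gm7887 also moved to −0.97 without KO 2 and missed the threshold there. Without WT 2, Cybb moved from −1.48 to −0.66 and missed it, and Serpina3n moved from −1.40 to −0.57. Pcm1, A2m and Cbln1 moved by less than 1.5 times without any 1 library. Some genes also missed the unadjusted threshold where their value moved less, namely Col8a1 and Rbm47 without KO 1 or KO 3, Serpina3n without KO 1, Cybb without KO 2, Gm7887 without KO 1 or WT 2 and, among the higher values, Adgb without WT 1, WT 2 or KO 2. When the genes were ranked without WT 3, 6 of the 12 were still among the 12 largest lower values, namely Pcm1, Shox2, Cybb, Serpina3n, A2m and Slc17a6.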

How the data were processed

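RNA of dissected tissue was made into libraries with the KAPA stranded mRNA-seq kit and sequenced on an Illumina HiSeq. The authors trimmed reads with Trim Galore and cutadapt, mapped them to GRCm38 (release 73) with STAR, kept uniquely mapped reads and counted them per gene with HTSeq; the deposited values are these raw counts, 1 table per sample. Versions and the strand setting of the counting are not given in the sources used here, so overlapping and antisense genes are uncertain. Rows for unassigned reads were left out; reads without a gene were 9.51 to 10.8% of a striatal library and ambiguous reads 1.58 to 1.64%.

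Genes with at least 10 reads in any of the 18 libraries (17545 of 38561) were tested with edgeR 4.0.16 (R 4.3.3; TMM scaling, quasi-likelihood F test, Benjamini-Hochberg adjustment), without covariates; log2 differences are edgeR's, KO minus WT, and CPM are TMM-scaled unless stated. The biological coefficient of variation was 13.8%. Counts of genes at an unadjusted p under 0.05 and of groups that do not overlap are descriptions. The effect in striatum was set against the other regions by an interaction term over 18 libraries. Named genes were Pcm1, genes at an adjusted p under 0.05, the 12 largest values in each direction above 1 log2 CPM among genes under an unadjusted p of 0.05 without overlap, up to 4 genes of smallest p and 2 of highest level per list, and fixed markers; others were chosen after their values were seen. The members, lists and tests were chosen with earlier results of these data known. Alternatives were DESeq2 1.42.0 and its size factors, limma 3.58.1 voom, other filters, all 18 libraries with and without lane, a replicate block, scaling without neighbouring-tissue genes and leaving out each library. The fit was tested on simulated data. Libraries were compared for duplicates and none were found. Replicates are separate animals by the names in the deposited files. Sequences were aligned with Biopython 1.88. A few genes are not reported here.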

Additional observations from a re-analysis of the deposited data

Results flagged for a closer look

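Grik1, which encodes a subunit of kainate-type glutamate receptors, stood out because its genotype effect differed between brain regions. The KO minus WT difference in the striatum was −1.36 on the log2 scale relative to the mean of the differences in frontal cortex and hippocampus (adjusted p = 0.0247, edgeR interaction test over 17545 genes). It was lower in 3 of 3 KO striatal libraries than in any WT striatal library. The call was lost with animal as a block (adjusted p = 0.0669, edgeR), with lane as a term (0.208) and without WT 3 (0.118), KO 1 (0.211) or KO 2 (0.108), while the direction stayed. All WT striatal libraries came from 1 lane.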

How the results depend on the processing

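The number of called genes varied with the method. Genes called higher and lower in KO numbered 4 and 1. They were 4 and 3 with DESeq2 size factors, 270 and 218 with DESeq2, 3 and 1 with limma voom, 4 and 2 with edgeR's expression filter, 41 and 24 with no filter, 40 and 14 in a fit over all 18 libraries, 4 and 4 in that fit with lane, and 17 and 6 at an adjusted p under 0.1. All 5 called genes were shared by DESeq2 and by the fit over 18 libraries, and 4 of them by the fit with lane and by limma voom. The cause of these differences was not tested. Leaving out each library gave 1 to 4 higher and 1 to 3 lower; 2 of the 5 were called without WT 1, WT 2, KO 1, KO 2 or KO 3, and 4 without WT 3. Pcm1 passed in every alternative.

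At the unadjusted threshold, leaving out each library gave 684 to 1359 higher and 660 to 1496 lower genes, the lowest without KO 1 (684 and 660), with 715 and 785 without KO 3. The replicate numbers were not taken as pairs. Same-numbered WT and KO libraries correlated in their deviations at 0.34, −0.32 and −0.47. The highest correlation, 0.59, was between WT 3 and KO 2, the libraries with Y-linked counts, so these values cannot show whether samples were paired. The replicate block gave 1 gene higher and 2 lower, with 2 of the 5 calls shared. The interaction count of 1 became 0 with animal as a block and 0 to 6 with single libraries left out.

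Of 161 named genes, 8 changed sign in some setting. Leaving out each library moved Kl from −3.87 to 0.30, Ttr from −8.45 to 0.85, Slc4a5 from −7.11 to 0.15 and Aqp1 from −5.41 to 0.025, each positive without WT 3. In the fit over 18 libraries with lane, Penk was −0.17, Synpo2 0.38, Hhip 0.039 and Begain −0.0039. Of 50 lists, 30 had a median that moved by more than the spread in some setting, and 6 of the medians at least 0.1 in size changed sign. They were choroid plexus (without WT 3), cortical (without WT 1, 0.013), interferon (without WT 2), glucocorticoid-responsive (−0.14, but 0.16 without WT 1 and 0.12 with lane), globus pallidus and septum (−0.11, but 0.17 with lane) and hypothalamic genes (−0.11, but 0.064 without WT 2, 0.0035 without KO 2 and 0.15 with lane).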

Other observations

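Genes encoded by the mitochondrial genome were the most abundant list measured. Their 7 tested mRNAs summed to 48350.0, 56384 and 60591 CPM in WT striatum and 46298, 52696 and 40407 CPM in KO striatum, so the groups overlapped. Of these, mt-Nd5 and mt-Nd6, subunits of respiratory complex I, lay wholly below the WT range, while mt-Co1 and mt-Cytb overlapped. Motor protein genes counted 1 lower and none higher of 34.

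Collagen genes counted 1 higher and 4 lower of 43, a share of 11.6% against 13.5% over all genes. Col6a2 was at 9.38, 11.5 and 11.4 CPM in WT and 16.8, 16.3 and 14.4 CPM in KO, and Col15a1, a basement membrane collagen, at 3.56, 4.18 and 3.38 against 2.84, 2.74 and 2.45 CPM. Both separated the genotypes without passing the adjusted threshold. Among 17 genes of subventricular zone progenitors and neuroblasts 1 was higher, and Dcx, a marker of migrating neuroblasts, was at 11.2, 14.4 and 17.7 CPM in WT and 16.3, 14.4 and 16.8 CPM in KO. Glucocorticoid-responsive genes counted 2 higher and 1 lower of 16, with a median of −0.14 that became 0.16 without WT 1, and with Fkbp5 at 53.6, 54.5 and 42.8 CPM in WT and 57.4, 60.7 and 63.1 CPM in KO. None of 11 nuclear and neuronal long noncoding RNAs passed the unadjusted threshold by edgeR, DESeq2 or limma voom, and Malat1 was at 545, 563 and 448 CPM in WT and 729.9, 327 and 494 CPM in KO.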
